A study of Homo sapiens with 8 samples.

Results

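TERT, the reverse transcriptase of telomerase, rose in MOLT-4 and fell in DND-41 cells treated with ACBI-1, 2 human lines of T-cell acute lymphoblastic leukaemia. ACD, a gene of shelterin, the complex that covers telomere ends, rose in both, and the other 5 shelterin genes had log2 changes of at most 0.22. The 8 genes described here are TERT, WRAP53 and the shelterin genes TERF1, TERF2, TERF2IP, TINF2, ACD and POT1, 8 of the 63677 gene identifiers counted. They were chosen by symbol, and the rule kept the identifier with most reads where a symbol had several. Each symbol had 1 identifier, so read totals decided nothing, and they ran over all libraries from 1790 reads for TERT to 16265 for TERF2IP. Total RNA was sequenced from 8 libraries in 4 groups of 2: MOLT-4 cells given 100 nM ACBI-1 for 8 h, MOLT-4 cells given DMSO for 8 h, DND-41 cells given 100 nM ACBI-1 for 8 h, and DND-41 cells given DMSO for 8 h. ACBI-1 is a degrader that brings the BAF chromatin remodelling ATPases SMARCA2 and SMARCA4, and the related subunit PBRM1, to the VHL ubiquitin ligase. DMSO is its solvent. The study asks which transcripts change within hours of that treatment in each line. Each line is an established culture, so the replicates do not sample other leukaemias.

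Telomerase adds TTAGGG repeats to chromosome ends by copying an RNA template, TERC, with the TERT protein. TERT transcription is shut off in most differentiated cells and is active in leukaemia lines, where TERT is usually the limiting component. WRAP53 (TCAB1) brings the enzyme to Cajal bodies and telomeres. In shelterin, TERF1 and TERF2 bind the duplex repeats, TERF2IP (RAP1) binds TERF2, TINF2 (TIN2) joins the parts together, ACD (TPP1) recruits telomerase, and POT1 binds the single-stranded overhang.

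The promoters of TERT and ACD are shown because these 2 of the 8 genes passed the test in both lines under every alternative run. They were read from RefSeq on GRCh38.p14, and TERT is at chr5:1295049-1295318 and ACD at chr16:67660241-67660510, both on the minus strand. Each runs 5′ to 3′ from 250 bases before the annotated start to 20 bases after it. Capitals mark the E-box CACGTG, which MYC and MAX can bind, and the GC box GGGCGG, which SP1 can bind, on either strand (CCGCCC is the GC box on the other strand).
TERT: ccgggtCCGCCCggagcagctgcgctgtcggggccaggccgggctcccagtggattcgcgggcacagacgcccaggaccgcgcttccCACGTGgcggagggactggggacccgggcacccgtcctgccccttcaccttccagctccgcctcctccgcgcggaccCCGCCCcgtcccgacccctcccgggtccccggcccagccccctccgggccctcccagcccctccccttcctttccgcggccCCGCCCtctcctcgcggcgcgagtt
ACD: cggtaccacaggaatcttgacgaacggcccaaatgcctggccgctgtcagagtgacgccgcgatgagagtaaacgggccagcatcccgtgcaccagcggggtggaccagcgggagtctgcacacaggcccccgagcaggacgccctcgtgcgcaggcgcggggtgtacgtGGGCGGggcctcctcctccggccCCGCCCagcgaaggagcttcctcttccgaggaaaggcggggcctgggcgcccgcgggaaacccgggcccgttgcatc
Motifs were sought from 250 bases before the start to 50 bases after it, and bases beyond that window were not searched. Within it TERT held 1 E-box, 163 bases before the start, and 3 GC boxes, and ACD held 0 E-boxes and 2 GC boxes. RefSeq entries were found for 6 of the 8 genes, those other than TERF1 and TERF2, and among their 9 promoter entries TERT's was the only one with CACGTG. Of 35116 human promoters of 300 bases, 7.26% held CACGTG and 45.0% held GGGCGG. The motifs CCGGAAG (ETS factors, 10.3% of promoters) and TTAGGG (9.05%) were not found in the TERT or ACD window. A motif match describes the letters and is not a binding measurement.

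Library totals were between 19860759 and 20239888 counts. Levels are given as CPM, the count of a gene scaled to a fixed library size. Each log2 fold change is that of ACBI-1 over DMSO with its SE, from edgeR's quasi-likelihood test of 2 libraries against 2. A gene was called at a Benjamini-Hochberg adjusted p below 0.05 over all genes tested. Nothing in the labels ties replicates to separate cultures, so every p-value reflects the spread among these libraries alone, and that spread may be technical. Over 11 T-lineage markers the sum was 2956 to 2972 CPM with ACBI-1, against 3900 to 4037 CPM with DMSO in MOLT-4, and 5442 to 5718 CPM with ACBI-1, against 5723 to 5782 CPM with DMSO in DND-41. Single markers went both ways. Among 10 tested in MOLT-4, 1 (CD3G) was called higher and 7 lower. Among 10 tested in DND-41, 3 (CD3D, CD3E and CD3G) were called higher and 6 lower. The shares of all genes called higher and lower were 20.7% and 24.4% in MOLT-4, and 20.0% and 23.2% in DND-41. DND-41 nearly lacked PTCRA and CD5, and MOLT-4 lacked TLX3. The 6 B-lineage markers summed to 4.12 to 4.68 CPM with ACBI-1, against 7.5 to 8.23 CPM with DMSO in MOLT-4, and to 947 to 994 CPM with ACBI-1, against 1587 to 1603 CPM with DMSO in DND-41. Nearly all of the DND-41 sum was CD79A, at 934 and 978 CPM with ACBI-1, against 1566 and 1585 CPM with DMSO, while MS4A1 and PAX5 were at 0. EBF1 and CD79B were also higher in DND-41 than in MOLT-4 under DMSO. In DND-41, CD79A, EBF1 and CD79B were each called lower with ACBI-1 (log2 fold changes -0.71, -0.34 and -2.07, edgeR). The part of these marker shifts in the results was not tested. The 6 myeloid and 5 erythroid markers stayed below 1 CPM. Both MOLT-4 replicate 2 libraries stood apart in collagen transcripts: COL1A1 had 0 and 11.4 CPM with ACBI-1, against 2.2 and 55.4 CPM with DMSO (replicates 1 and 2). The 6 stromal and epithelial markers summed to between 0.687 and 14.9 CPM with ACBI-1 and between 3.93 and 69.8 CPM with DMSO in MOLT-4, and to at most 0.19 CPM in DND-41, with EPCAM at 0 everywhere. MOLT-4 results are therefore also given with both replicate 2 libraries left out, in 1 fit that takes the spread from DND-41. The share of counts from mitochondrially encoded genes was 21.3% and 24.6% in the MOLT-4 ACBI-1 libraries and 19.0% and 14.4% in the MOLT-4 DMSO libraries. It was 15.5% and 11.8% in the DND-41 ACBI-1 libraries and 12.1% and 13.2% in the DND-41 DMSO libraries. Leaving these genes out changed no call of the 8 genes.

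TERT rose in MOLT-4 and fell in DND-41. It had 17.5 and 17.7 CPM in MOLT-4 with ACBI-1, against 10.9 and 12.5 CPM with DMSO. DND-41 cells had TERT at 4.45 and 4.98 CPM with ACBI-1, against 12.1 and 10.8 CPM with DMSO. The DMSO libraries of both lines lay in the same range, and the treated libraries lay above them in MOLT-4 and below them in DND-41, with no overlap. In counts, TERT had 330 and 321 reads with ACBI-1 and 207 and 251 with DMSO in MOLT-4, and 93 and 109 with ACBI-1 and 256 and 223 with DMSO in DND-41. The rise in MOLT-4 was 0.58 ± 0.10 on the log2 scale, 1.5-fold (adjusted p = 0.000115, edgeR). The fall in DND-41 was -1.27 ± 0.14, 2.4-fold (adjusted p = 3.32e-06, edgeR). The difference of the effects, MOLT-4 minus DND-41, was 1.87 ± 0.17 (adjusted p = 2.81e-07, edgeR interaction test over 8 libraries). That value was higher than the differences of 98.5% of the 15498 genes tested. Without both MOLT-4 replicate 2 libraries the MOLT-4 rise was 0.67 (adjusted p = 0.00647) and the difference 1.94 (adjusted p = 5.73e-05). TERT passed the test under every alternative run, 13 in MOLT-4, 12 in DND-41 and 16 for the difference. In bulk RNA, fewer cells of a type and less RNA per cell cannot be told apart.

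**Figure D1:**
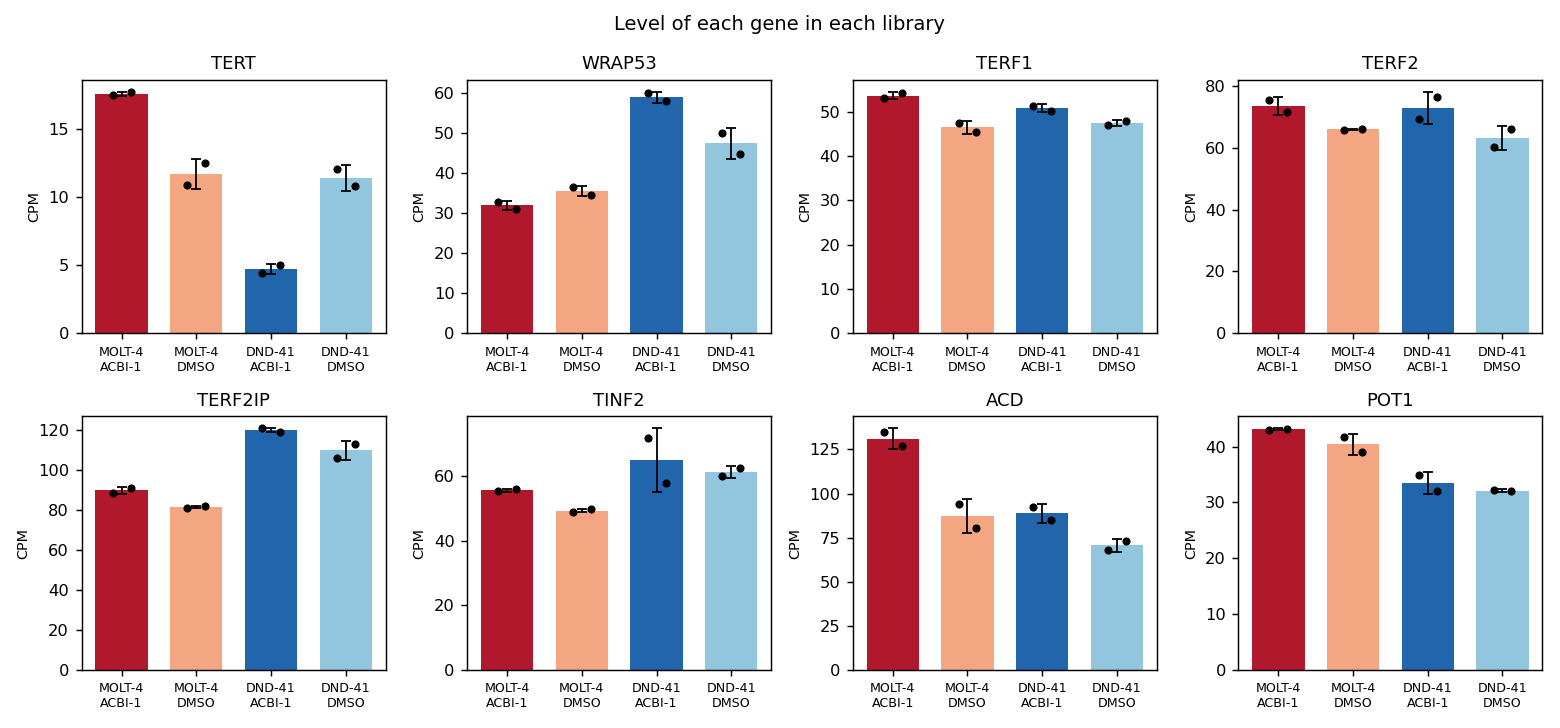
Level of the 8 genes in CPM (y axes, each starting at 0) in the 4 groups (x axes). Bars are means of 2 libraries, error bars are SD and points are libraries. TERT lies at 17.5 and 17.7 CPM in treated MOLT-4 and at 4.45 and 4.98 CPM in treated DND-41, while its 4 DMSO libraries lie between 10.8 and 12.5 CPM.

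Under DMSO the lines had close TERT levels. TERT averaged 11.7 ± 1.13 CPM in MOLT-4 DMSO and 11.4 ± 0.969 CPM in DND-41 DMSO (SD, n = 2 each), a log2 difference of 0.03 ± 0.11 that did not pass the test (adjusted p = 0.844, edgeR). TERC, the template RNA, had 1 to 5 reads per library and was not tested. TERC was near the limit of counting at this depth, and why its reads were so few was not tested. DKC1, which encodes the TERC-stabilising protein dyskerin, had a log2 fold change of 0.03 ± 0.06 in MOLT-4 (adjusted p = 0.662, edgeR) and -0.12 ± 0.06 in DND-41 (adjusted p = 0.136, edgeR), and was called in neither. Without DND-41 ACBI-1 replicate 1 it was called lower in DND-41 (-0.15, adjusted p = 0.0389).

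MYC, an activator of TERT transcription through E-boxes, was called in the same directions as TERT. It had 953 and 980 CPM in MOLT-4 with ACBI-1, against 788 and 800 CPM with DMSO. DND-41 cells had MYC at 537 and 533 CPM with ACBI-1, against 722 and 731 CPM with DMSO. The changes were smaller than those of TERT: 0.28 ± 0.06 in MOLT-4 (adjusted p = 0.00157, edgeR) and -0.43 ± 0.06 in DND-41 (adjusted p = 3.72e-05, edgeR). The difference between lines was 0.72 ± 0.08 (adjusted p = 5.38e-06, edgeR). The MOLT-4 value was 0.20 (adjusted p = 0.11) when libraries were scaled by size alone. Among 24 listed regulators of TERT transcription, 10 rose and 6 fell in MOLT-4, and 8 rose and 9 fell in DND-41. Of all genes tested, 20.7% were called higher and 24.4% lower in MOLT-4, and 20.0% and 23.2% in DND-41, and the 6 that fell in MOLT-4 were near that share. Those that rose in MOLT-4 and fell in DND-41 were 2, MYC and ETS1, and none went the other way. ETS1, an ETS factor of T cells named here after its values were seen, had 389 and 357 CPM with ACBI-1, against 273 and 261 CPM with DMSO in MOLT-4. DND-41 cells had ETS1 at 98.8 and 102 CPM with ACBI-1, against 177 and 173 CPM with DMSO. ETS1 changed by 0.48 ± 0.06 in MOLT-4 (adjusted p = 1.52e-06, edgeR) and by -0.79 ± 0.06 in DND-41 (adjusted p = 6.45e-08, edgeR), a difference of 1.29 ± 0.08 (adjusted p = 5.9e-09, edgeR). Another 4 regulators rose in both lines and 5 fell in both. The shares of all genes above are for 1 line at a time. No share for calls in both lines is set beside these counts, which are described only. GABPA, an ETS factor, rose by 0.68 ± 0.06 and 0.84 ± 0.07 (MOLT-4, then DND-41), and its partner GABPB1 rose by 0.82 ± 0.07 and 0.61 ± 0.07. WT1, a zinc finger factor that can repress TERT, fell by 3.002 ± 0.09 and 2.69 ± 0.12 on the log2 scale. ETS2 fell by 0.22 ± 0.06 in MOLT-4, a call that was lost without MOLT-4 DMSO replicate 2 (-0.14, adjusted p = 0.0838) or with neither replicate 2 library (-0.16, adjusted p = 0.247), and by 1.19 ± 0.06 in DND-41. STAT3 fell by 0.42 ± 0.05 and 0.76 ± 0.07, and MZF1 rose by 0.76 ± 0.08 and 0.63 ± 0.07. The list's median was 0.115 in MOLT-4 and -0.0101 in DND-41, against 0.000844 and 0.0104 over all genes tested. In MOLT-4 without both replicate 2 libraries, fewer regulators were called, as were fewer of all genes.

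CLPTM1L, the gene beside TERT on chromosome 5, fell in DND-41. It had 115 and 107 CPM with ACBI-1, against 150 and 155 CPM with DMSO (log2 fold change -0.45 ± 0.06, adjusted p = 3.24e-05, edgeR). In MOLT-4 it had 185 and 192 CPM with ACBI-1 and 193 and 192 CPM with DMSO, and was not called (-0.04 ± 0.05, adjusted p = 0.605, edgeR). The difference between lines was 0.43 ± 0.08 (adjusted p = 0.000961, edgeR), and it missed the threshold without both MOLT-4 replicate 2 libraries (0.38, adjusted p = 0.058).

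**Figure D2:**
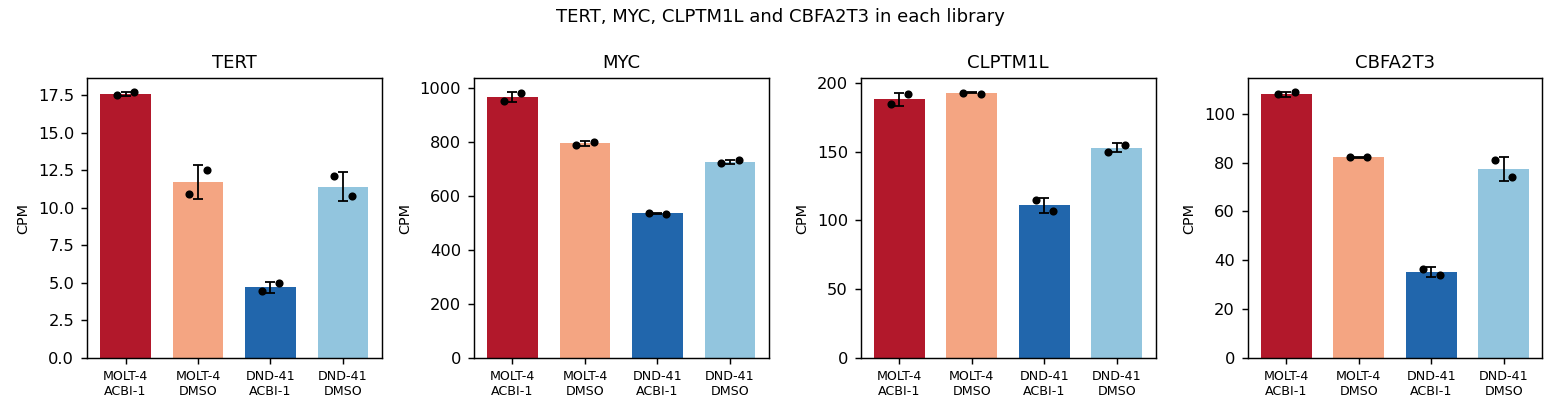
TERT, MYC, CLPTM1L and CBFA2T3 in CPM (y axes, each starting at 0) in the 4 groups. Bars are means of 2 libraries, error bars are SD and points are libraries. In treated DND-41, MYC lies at 533 to 537 CPM and CBFA2T3 at 33.7 to 36.5 CPM, below their DMSO libraries as TERT does. CBFA2T3 is shown because its profile was nearest to that of TERT over these same libraries, so its likeness follows from that choice.

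The protein-coding genes with profiles nearest to TERT over the 8 libraries were CBFA2T3, CCR8, AGPAT4, TGFBR2 and TIAF1, among 12148 genes compared. Likeness was the Euclidean distance between log2(CPM + 0.5) profiles centred on their own means. The distances were 0.309 for CBFA2T3, 0.513 for CCR8, 0.599 for AGPAT4, 0.626 for TGFBR2 and 0.634 for TIAF1, on the log2 scale. CBFA2T3, a transcriptional corepressor, had 108 and 109 CPM with ACBI-1 and 82.4 and 82.1 CPM with DMSO in MOLT-4, and 36.5 and 33.7 CPM with ACBI-1 and 81 and 73.9 CPM with DMSO in DND-41. AGPAT4 was called lower in DND-41 but not called in MOLT-4 (0.08 ± 0.13, adjusted p = 0.653, edgeR), where its groups overlapped. DESeq2 lost the MOLT-4 calls of CCR8 and TIAF1 (adjusted p = 0.218 and 0.225) and the DND-41 call of CCR8 (adjusted p = 0.0501). MYC ranked 62 at a distance of 1.02. The nearest of the other 7 genes described here was POT1, at rank 2013. The distances and ranks are descriptions over 8 libraries that share 4 conditions, with no test of likeness.

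WRAP53 changed in the direction opposite to TERT where it was called. In DND-41 it had 59.9 and 57.9 CPM with ACBI-1, against 50.1 and 44.7 CPM with DMSO, a rise of 0.33 ± 0.07 (adjusted p = 0.00191, edgeR). In MOLT-4 it had 32.7 and 31.1 CPM with ACBI-1, against 36.5 and 34.6 CPM with DMSO (-0.16 ± 0.07, adjusted p = 0.0861, edgeR), and did not pass the test, although the libraries did not overlap. The difference of the effects was -0.47 ± 0.10 (adjusted p = 0.00337, edgeR), and it passed under all 16 alternatives. The DND-41 rise missed the threshold without DMSO replicate 2 (0.24, adjusted p = 0.0783). The MOLT-4 value passed when libraries were scaled by size alone (-0.24, adjusted p = 0.0345). The level of WRAP53 was lower in MOLT-4 than in DND-41 under DMSO, by 0.42 ± 0.07 on the log2 scale (adjusted p = 4.35e-05, edgeR). Libraries were strand-specific, but the sources used here do not give the strand setting of the counting, so for any of the 8 genes, reads from a stretch shared with a gene on the opposite strand may not have been kept apart. That was not tested.

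The shelterin genes all had log2 fold changes above 0 in both lines, but ACD was the only one of the 6 called under every alternative within each line. In MOLT-4, 5 of the 8 genes rose and 0 fell, where 20.7% of all 14239 genes tested were called higher and 24.4% lower. In DND-41, 3 of the 8 rose and 1, TERT, fell, where 20.0% of 14008 genes were called higher and 23.2% lower. Across the 6 shelterin genes the median was 0.161 in MOLT-4 and 0.125 in DND-41, against 0.000844 and 0.0104 over all genes tested. With both MOLT-4 replicate 2 libraries left out, 2 of the 8 genes, TERT and ACD, still rose in MOLT-4, and all 6 shelterin values were above 0. Scaling by library size alone also left all 6 above 0 in each line. Without DND-41 ACBI-1 replicate 1, 5 of 6 were above 0 in DND-41. Non-overlapping libraries were seen for 7 genes higher and 1 lower in MOLT-4, and for 5 higher and 1 lower in DND-41. For all genes tested those shares were 36.0% higher and 35.8% lower in MOLT-4, and 33.4% higher and 36.2% lower in DND-41.

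**Figure D3:**
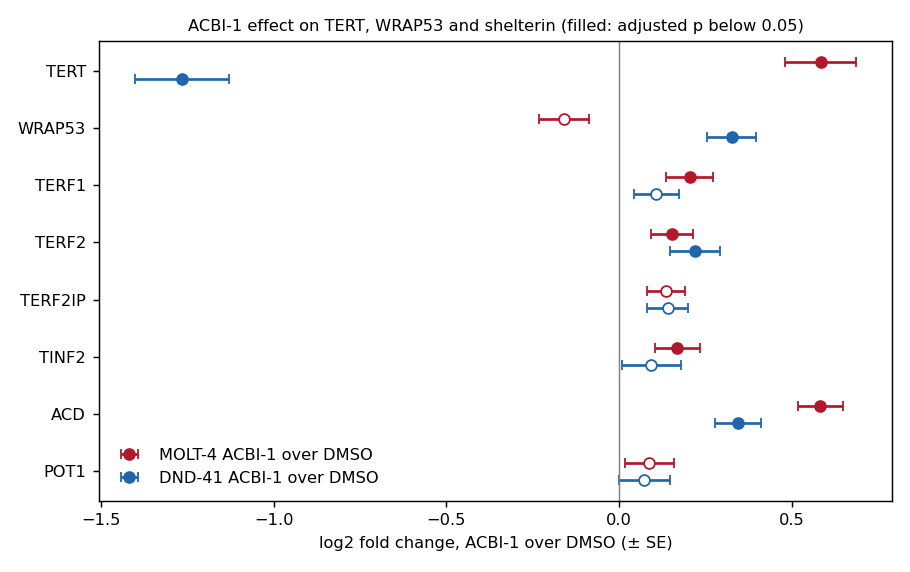
Log2 fold change of ACBI-1 over DMSO (x axis) for the 8 genes (y axis) in MOLT-4 (red) and DND-41 (blue), with SE bars from the edgeR fit of 2 libraries against 2. Filled points have adjusted p below 0.05. TERT lies at 0.58 in MOLT-4 and -1.27 in DND-41, WRAP53 at -0.16 and 0.33, and the 6 shelterin genes between 0.07 and 0.58.

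ACD, the shelterin subunit that recruits telomerase, rose in both lines. It had 135 and 127 CPM with ACBI-1, against 94 and 80.5 CPM with DMSO in MOLT-4. DND-41 cells had ACD at 92.5 and 85.1 CPM with ACBI-1, against 68 and 73.1 CPM with DMSO. The treated libraries lay above the DMSO libraries in each line. The rises were 0.58 ± 0.06 in MOLT-4 (adjusted p = 4.44e-07, edgeR) and 0.34 ± 0.07 in DND-41 (adjusted p = 0.000807, edgeR). Without both MOLT-4 replicate 2 libraries the MOLT-4 rise was 0.51 (adjusted p = 0.00154). The difference of the effects was 0.26 ± 0.10 and did not pass (adjusted p = 0.118, edgeR). It passed without MOLT-4 DMSO replicate 1 (0.38, adjusted p = 0.0235) and without DND-41 ACBI-1 replicate 1 (0.32, adjusted p = 0.0447). ACD is overlapped on the opposite strand by CARMIL2, listed in the files as RLTPR and named here after its values were seen. RLTPR fell, with 106 and 98.6 CPM with ACBI-1 and 253 and 265 CPM with DMSO in MOLT-4, and 70.3 and 82.7 CPM with ACBI-1 and 204 and 217 CPM with DMSO in DND-41. Its log2 fold changes were -1.35 ± 0.06 (adjusted p = 3.43e-13, edgeR) and -1.44 ± 0.07 (adjusted p = 1.88e-09, edgeR), opposite in sign to those of ACD. PARD6A, a cell polarity gene whose start lies 131 bases from that of ACD on the other strand, had 12 and 13.8 CPM with ACBI-1 and 13.2 and 15.9 CPM with DMSO in MOLT-4, and 5.16 and 4.43 CPM with ACBI-1 and 4.79 and 4.34 CPM with DMSO in DND-41. It was called in neither line. It was called lower in MOLT-4 without DMSO replicate 1 (-0.31, adjusted p = 0.0358).

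Of the DNA-binding subunits, TERF2 was called in both lines, TERF1 in MOLT-4 and POT1 in neither, and no log2 fold change was above 0.22. TERF1 had 53.1 and 54.3 CPM with ACBI-1, against 47.5 and 45.4 CPM with DMSO in MOLT-4 (0.20 ± 0.07, adjusted p = 0.018, edgeR). In DND-41 it had 51.4 and 50.1 CPM with ACBI-1 and 47 and 48 CPM with DMSO (0.11 ± 0.06, adjusted p = 0.197, edgeR). TERF1 was thus called in MOLT-4 and not in DND-41, but the difference of the effects did not pass (0.11 ± 0.09, adjusted p = 0.461, edgeR). TERF2 had 75.7 and 71.6 CPM with ACBI-1, against 66 and 66.2 CPM with DMSO in MOLT-4 (0.15 ± 0.06, adjusted p = 0.0469, edgeR). In DND-41 TERF2 had 69.3 and 76.7 CPM with ACBI-1, against 60.5 and 66.2 CPM with DMSO (0.22 ± 0.07, adjusted p = 0.0233, edgeR). The MOLT-4 call of TERF2 was near the threshold. POT1 had 43 and 43.2 CPM with ACBI-1 and 41.7 and 39.1 CPM with DMSO in MOLT-4, and 34.9 and 32.1 CPM with ACBI-1 and 32.3 and 32 CPM with DMSO in DND-41. POT1 was called in neither line (0.09 ± 0.07, adjusted p = 0.343, and 0.07 ± 0.07, adjusted p = 0.457, edgeR). The antisense gene POT1-AS1, which starts 110 bases from POT1 and was named after its values were seen, had 1.96 and 2.97 CPM with ACBI-1 and 0.839 and 0.943 CPM with DMSO in MOLT-4. In DND-41 POT1-AS1 had 0.717 and 1.51 CPM with ACBI-1 and 0.284 and 0.434 CPM with DMSO. It was called higher in MOLT-4 (adjusted p = 0.000988, edgeR) and in DND-41 (adjusted p = 0.0119, edgeR). The MOLT-4 call was lost without both replicate 2 libraries, and the DND-41 call was lost with DESeq2 (adjusted p = 0.101), and when ACBI-1 replicate 2 or DMSO replicate 1 was left out (adjusted p = 0.206 and 0.0812).

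TINF2, which joins the complex together, was called in MOLT-4 alone, and TERF2IP, which binds TERF2, in neither line. TINF2 had 55.3 and 55.9 CPM with ACBI-1, against 48.9 and 49.7 CPM with DMSO in MOLT-4 (0.17 ± 0.07, adjusted p = 0.0427, edgeR). In DND-41 it had 71.8 and 57.8 CPM with ACBI-1 and 59.9 and 62.5 CPM with DMSO, and the groups overlapped (0.09 ± 0.09, adjusted p = 0.413, edgeR). Without DND-41 ACBI-1 replicate 2, TINF2 was called higher in DND-41 (0.24, adjusted p = 0.00239). TERF2IP had 88.8 and 91.3 CPM with ACBI-1, against 81.3 and 82.1 CPM with DMSO in MOLT-4 (0.14 ± 0.05, adjusted p = 0.05001, edgeR), just over the threshold. In DND-41 TERF2IP had 121 and 119 CPM with ACBI-1 and 106 and 113 CPM with DMSO (0.14 ± 0.06, adjusted p = 0.0735, edgeR). The neighbour KARS, a transfer RNA synthetase gene that starts 857 bases from TERF2IP on the other strand and was named after its values were seen, was called higher in DND-41 (0.20 ± 0.06, adjusted p = 0.0198, edgeR) and not in MOLT-4 (0.13 ± 0.06, adjusted p = 0.0694, edgeR). The KARS difference between lines was -0.06 ± 0.09 (adjusted p = 0.764, edgeR), and its DND-41 call was lost without DND-41 ACBI-1 replicate 1, DMSO replicate 1 or DMSO replicate 2. The MOLT-4 calls of TERF1, TERF2 and TINF2 were lost with library size alone (0.13, 0.07 and 0.09, adjusted p = 0.281, 0.534 and 0.463), with DESeq2 (adjusted p = 0.125, 0.21 and 0.21) and without both replicate 2 libraries (0.15, 0.19 and 0.16, adjusted p = 0.303, 0.24 and 0.428). TERF2 was lost in MOLT-4 whichever of its 4 libraries was left out. For TERF1 the call was lost without MOLT-4 ACBI-1 replicate 2 (0.19, adjusted p = 0.0988) and also without MOLT-4 DMSO replicate 2 (0.18, adjusted p = 0.052). For TINF2 it was lost without MOLT-4 ACBI-1 replicate 1 (0.18, adjusted p = 0.121), MOLT-4 ACBI-1 replicate 2 (0.17, adjusted p = 0.167) or MOLT-4 DMSO replicate 1 (0.16, adjusted p = 0.0751). In DND-41 the TERF2 call was lost without ACBI-1 replicate 2 (0.14, adjusted p = 0.0961), and the value without DMSO replicate 1 was 0.15 and also missed the threshold (adjusted p = 0.321). It was lost there with DESeq2 (0.22, adjusted p = 0.0869) and with no filter on low counts (0.21, adjusted p = 0.0769). In MOLT-4 the calls of TERF2 and TINF2 were lost with no filter (adjusted p = 0.0638 and 0.0568) and with all 8 libraries in 1 fit (adjusted p = 0.071 and 0.102).

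Levels were also set beside each other per kilobase of exon, as CPM per kb, with lengths from an annotation of another build matched by identifier. TERT was the lowest of the 8 in every group, at 3.81 CPM per kb in MOLT-4 with ACBI-1, 2.53 in MOLT-4 with DMSO, 1.02 in DND-41 with ACBI-1 and 2.49 in DND-41 with DMSO. ACD was highest in MOLT-4, at 40.6 CPM per kb with ACBI-1 and 27.1 with DMSO. TERF2IP was highest in DND-41, at 35.5 CPM per kb with ACBI-1 and 32.5 with DMSO. The order below them was TERF2IP, TINF2 and TERF2 in MOLT-4 in both conditions. In DND-41, ACD and TINF2 followed TERF2IP with overlapping libraries in both conditions. WRAP53, POT1 and TERF1 lay between TERF2 and TERT everywhere. In MOLT-4 with ACBI-1 the neighbours WRAP53 and TERF1 overlapped, and in MOLT-4 with DMSO WRAP53 and POT1 did. In DND-41 POT1 and TERF1 overlapped in both conditions. All other neighbours in these orders were apart.

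Under DMSO, 2 of the 8 genes were higher in MOLT-4 than in DND-41 and 3 were lower, where 33.2% and 30.7% of 15498 genes were called higher and lower. ACD was higher by 0.31 ± 0.07 (adjusted p = 0.0014, edgeR) and POT1 by 0.33 ± 0.07 (adjusted p = 0.000426, edgeR). The ACD call was lost without MOLT-4 DMSO replicate 1 (0.19, adjusted p = 0.0545). TERF2IP was lower by 0.43 ± 0.06 (adjusted p = 2.56e-06, edgeR), TINF2 by 0.31 ± 0.08 (adjusted p = 0.00218, edgeR), and WRAP53 as given above. TERF1 and TERF2 differed by -0.03 ± 0.06 and 0.06 ± 0.07 and did not pass. Of the differences in the ACBI-1 effect, 1 of the 8, TERT, was called higher in MOLT-4 and 1, WRAP53, lower, where 7.18% and 6.17% of 15498 genes were. None of the 6 shelterin genes was called in that test with edgeR, and 1 of them, ACD, had an unadjusted p below 0.05 (0.023). DESeq2 likewise called 0 of the 6.

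Genes of the CST complex and of shelterin's partners were called higher more often than lower in both lines, while 20.7% of all genes tested were called higher and 24.4% lower in MOLT-4, and 20.0% and 23.2% in DND-41. Of 6 tested genes of the CST complex, which guards and fills in the telomeric C strand, and its primase partners, 4 rose and 0 fell in each line, and the medians were 0.247 in MOLT-4 and 0.221 in DND-41. POLA2, a DNA polymerase alpha subunit, rose by 0.24 ± 0.05 in MOLT-4 and 0.33 ± 0.06 in DND-41. CTC1, the largest CST subunit, rose in MOLT-4 by 0.30 ± 0.07, and POLA1 rose in DND-41 by 0.23 ± 0.06. STN1, listed in the files as OBFC1 and named after its values were seen, rose in both lines, by 0.26 ± 0.09 and 0.28 ± 0.08. Of 21 shelterin partners and end-processing factors, 12 rose and 2 fell in MOLT-4, and 10 rose and 1 fell in DND-41. SLX4, a nuclease scaffold that binds TERF2, rose by 0.60 ± 0.06 and 0.88 ± 0.07 (MOLT-4, then DND-41), and RAD50, of the MRN break sensor, rose by 0.35 ± 0.07 and 0.43 ± 0.06. HMBOX1, a protein that binds telomeric repeats, rose by 0.23 ± 0.07 and 0.63 ± 0.08, a difference of -0.38 ± 0.11 (adjusted p = 0.0206, edgeR). Its MOLT-4 call was lost with library size alone, with DESeq2 and with neither MOLT-4 replicate 2 library (0.15, 0.24 and 0.20, adjusted p = 0.189, 0.144 and 0.252). The HMBOX1 difference missed the threshold with DESeq2 (adjusted p = 0.102), with neither MOLT-4 replicate 2 library (adjusted p = 0.0956) and without any 1 of DND-41 ACBI-1 replicate 2, DND-41 DMSO replicate 2, MOLT-4 ACBI-1 replicates 1 and 2 and MOLT-4 DMSO replicate 1 (adjusted p = 0.0644 to 0.146). ERCC1, a nuclease subunit, fell in both lines by 0.70 ± 0.06 and 0.52 ± 0.07 on the log2 scale. ATM, the checkpoint kinase, fell in MOLT-4 by 0.41 ± 0.08 and was not called in DND-41 (0.10 ± 0.10), a difference of -0.49 ± 0.14 (adjusted p = 0.0244, edgeR). That difference missed the threshold without any 1 of DND-41 ACBI-1 replicate 2, DND-41 DMSO replicates 1 and 2, MOLT-4 ACBI-1 replicate 2 and MOLT-4 DMSO replicate 1 (adjusted p = 0.0593 to 0.169), and with neither MOLT-4 replicate 2 library (adjusted p = 0.207). Without DND-41 ACBI-1 replicate 1, ATM was called higher in DND-41 (0.28, adjusted p = 0.000174). With both MOLT-4 replicate 2 libraries left out, 0 of the 6 CST and primase genes and 4 of the 21 partners rose in MOLT-4, and 1 partner fell. The medians of these lists were then 0.184 and 0.146, and fewer of all genes were called higher in that fit. Scaled by library size alone, 1 of the 6 and 4 of the 21 rose in MOLT-4. Of all genes, 1781 were then called higher in MOLT-4, against 2946 with TMM scaling.

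**Figure D4:**
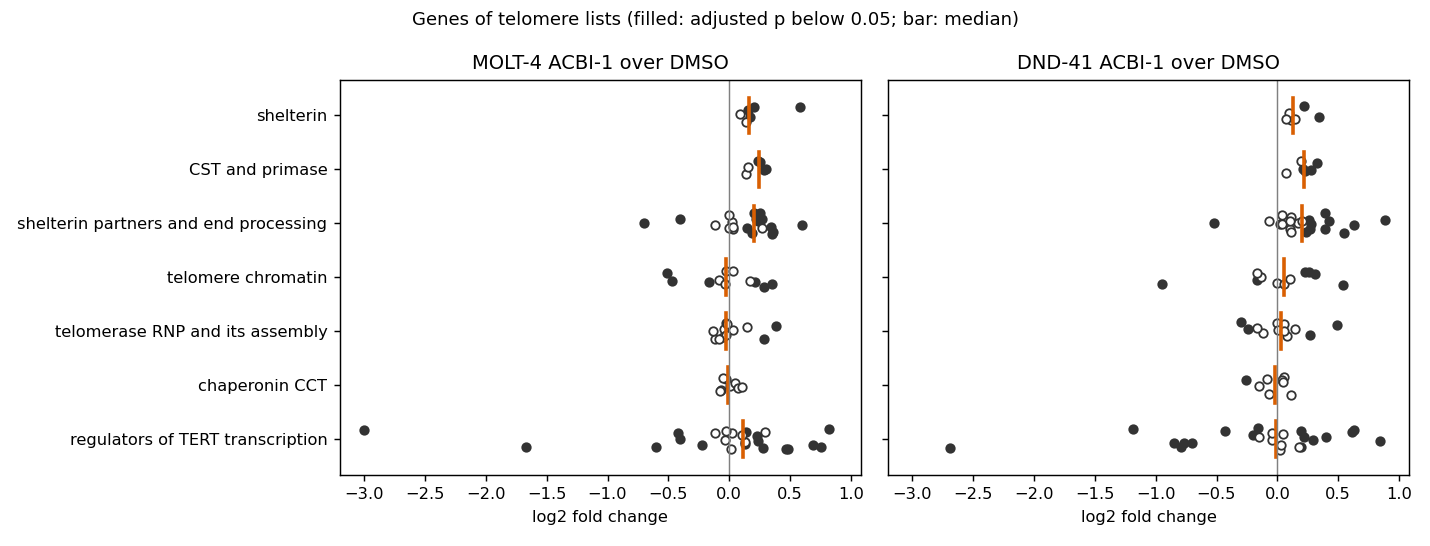
Log2 fold change of ACBI-1 over DMSO (x axes) for every tested gene of 7 lists (y axis) in MOLT-4 (left) and DND-41 (right). Filled points have adjusted p below 0.05 and the bar is the list's median, which for shelterin is 0.161 in MOLT-4 and 0.125 in DND-41. Vertical scatter within a list has no meaning.

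In the assembly, chaperonin and chromatin lists, at most 4 genes of a list were called in 1 direction, against the same shares of all genes as above. Of 12 tested genes of telomerase RNP assembly, 2 rose and 0 fell in MOLT-4, and 2 rose and 2 fell in DND-41, with medians of -0.0289 and 0.0286. COIL, the scaffold of Cajal bodies, rose in both lines by 0.39 ± 0.07 and 0.49 ± 0.07. NAF1, an assembly factor, rose in MOLT-4 by 0.28 ± 0.06, and TGS1, which modifies the RNA cap, rose in DND-41 by 0.26 ± 0.07. SHQ1, a dyskerin chaperone, fell in DND-41 by 0.30 ± 0.07, and GAR1, a core protein of the particle, fell there by 0.24 ± 0.08. Of the 8 subunits of the chaperonin CCT, which folds WRAP53, 0 were called in MOLT-4 with edgeR and 1, CCT2, fell in DND-41 by 0.26 ± 0.06. Of 11 telomere chromatin genes, 3 rose and 3 fell in MOLT-4, and 4 rose and 2 fell in DND-41. ATRX, a remodeller that deposits histone H3.3, rose by 0.28 ± 0.07 and 0.54 ± 0.08, and H3F3B, an H3.3 gene, fell by 0.51 ± 0.05 and 0.95 ± 0.06. SUV39H1, a histone methyltransferase, rose by 0.35 ± 0.06 in MOLT-4 and 0.26 ± 0.06 in DND-41, where the call was lost without DMSO replicate 1 (0.23, adjusted p = 0.091). The H3 chaperone ASF1A fell in MOLT-4 by 0.47 ± 0.07. CBX1, a heterochromatin protein, rose in DND-41 by 0.31 ± 0.06, and ASF1B fell there by 0.17 ± 0.06. Without both MOLT-4 replicate 2 libraries, fewer assembly and chromatin genes were called in MOLT-4, as were fewer of all genes. Scaling by library size alone lost the MOLT-4 calls of ATRX, NAF1 and POLA2 (0.20, 0.20 and 0.16, adjusted p = 0.0694, 0.0531 and 0.105, edgeR). In DND-41, GAR1, ASF1B, SHQ1, TGS1, POLA1 and CCT2 each lost their call when a DMSO library was left out. GAR1 and ASF1B also lost theirs with library size alone, with no filter on low counts, with DESeq2 and without ACBI-1 replicate 2. The fold changes in this and the preceding paragraph are from edgeR, and unless a p is given each passed at an adjusted p below 0.05. The genes named there for 1 line were not called in the other with the main edgeR settings. Of these, SHQ1, CCT2, CBX1 and ASF1A differed between the lines as well (adjusted p = 0.0424, 0.0116, 0.0453 and 0.0423, edgeR), calls that all 4 lost with neither MOLT-4 replicate 2 library. SHQ1, CBX1 and ASF1A also lost theirs when most of the single libraries were left out, and CCT2 when some were. Library size alone lost SHQ1 and CCT2, and DESeq2 or no filter on low counts lost SHQ1 and ASF1A. SHQ1 was also lost with DESeq2-type size factors and without mitochondrially encoded genes. ASF1A was called lower in DND-41 too with a replicate block (-0.16, adjusted p = 0.0386, edgeR). The same held with all 8 libraries in 1 fit (-0.18, adjusted p = 0.0355, edgeR). A replicate block also called TGS1 and POLA1 higher in MOLT-4 (0.15 and 0.14, adjusted p = 0.0315 and 0.0477, edgeR).

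In the authors' deposited table for DND-41, 3 of the 8 genes had an adjusted p below 0.05: TERT at -1.27 (5.48e-07), WRAP53 at 0.325 (0.00892) and ACD at 0.343 (0.00141). In the authors' deposited table for MOLT-4, 2 did: TERT at -0.592 (0.00622) and ACD at -0.589 (1.12e-09). The authors' deposited table for MOLT-4 has signs opposite to the counts, so its values run DMSO over ACBI-1, while the one for DND-41 runs ACBI-1 over DMSO.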

How the data were processed

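RNA was measured in 8 libraries, 2 per group, and groups were taken from the labels. The deposited counts are unnormalized whole reads per gene. The submitters' processing notes name STAR 2.5.2a, featureCounts, DESeq2 1.12.4 and the hg19 build. For the annotation and the strand setting the sources used here give nothing. Per the file headers, the authors' tables hold log2 fold changes, p-values and adjusted p-values. The authors also deposited 2 score columns, the mean normalized count and the test statistic.

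Both count tables held the same 63677 identifiers and were joined by identifier. Pearson's r between replicates, on log2 CPM, was 0.996 to 0.9974, and none were identical. Each line was tested with edgeR 4.0.16 (R 4.3.3): filterByExpr at a minimum count of 10, TMM scaling and the quasi-likelihood F test. The difference between lines was the interaction over all 8 libraries. SE was taken as the absolute log2 fold change over the square root of F, and so draws on the spread of other genes. CPM were computed over TMM sizes of all 8 libraries. Gene lengths, types and neighbours came from GENCODE on GRCh38, matched by identifier. The steps were also run on simulated counts with 200 changed genes. Far more genes were called here, so that run does not gauge false calls in these data. Tables were made with Python 3.11.15.

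The 8 genes and the lists were chosen with earlier results of these data known. Genes of other lists were named by rule: per line and list, the 2 called rises and 2 called falls of lowest adjusted p at a mean of at least 1 CPM, and always TERC, DKC1, MYC, CLPTM1L and PARD6A. A further gene that the rule names is not reported here. Alternatives were scaling by library size alone or by DESeq2-type size factors, a stricter filter at 1 CPM or none, all 8 libraries in 1 fit, DESeq2 1.42.0, leaving out each library, and a replicate block. Leaving out mitochondrially encoded genes, or both MOLT-4 replicate 2 libraries, was chosen after seeing the data.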

Additional observations from a re-analysis of the deposited data

Results flagged for a closer look

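The ACBI-1 effect on TERT differed between the lines by the interaction test: the log2 difference, MOLT-4 minus DND-41, was 1.87 ± 0.17 (adjusted p = 2.81e-07, edgeR), with TERT higher than DMSO in 2 of 2 MOLT-4 libraries and lower in 2 of 2 DND-41 libraries. The effect on WRAP53 differed the other way, by -0.47 ± 0.10 (adjusted p = 0.00337, edgeR), with WRAP53 higher than DMSO in 2 of 2 DND-41 libraries and lower in 2 of 2 MOLT-4 libraries. The WRAP53 change within MOLT-4 did not itself pass the test (-0.16, adjusted p = 0.0861, edgeR).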

How the results depend on the processing

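No value for the 8 genes passed the test with its sign turned round under any alternative run. Of the alternatives' values for the 8 genes, 78 of 104 in MOLT-4, 88 of 96 in DND-41, 125 of 128 for the difference and 127 of 128 for the DMSO level stayed on their side of the threshold, while 22, 5, 0 and 1 lost a call and 4, 3, 3 and 0 gained one. The number of the 8 genes called higher in MOLT-4, 5, was 2 with library size alone (then 1 lower), 3 without a filter, 2 with DESeq2, 3 with all 8 libraries in 1 fit, 2 with both MOLT-4 replicate 2 libraries left out, and 2 to 3 when 1 library was left out. For the difference, 2 rather than 1 were higher with the replicate block, and 1 to 2 when 1 library was left out. For the DMSO level the number higher was 1 without MOLT-4 DMSO replicate 1, and 1 to 2 over single libraries left out. Over all genes, MOLT-4 calls were 6423 (2946 higher, 3477 lower). With DESeq2 they were 4032 (1765 and 2267), and without both MOLT-4 replicate 2 libraries 3589 (1357 and 2232). With library size alone, 1781 were higher. DND-41 had 2808 higher, 1722 with DESeq2 and 1745 to 3044 when 1 library was left out. The difference gave 2068 calls (1112 higher, 956 lower), against 1307 with DESeq2 (669 higher) and 944 without both MOLT-4 replicate 2 libraries (440 and 504). With 1 library left out they were 1367 to 2196 (699 to 1207 higher, 621 to 989 lower). With library size alone 500 were higher, and the median of all genes moved to -0.118, against 0.0042. Calls of shelterin genes other than ACD in MOLT-4 were the ones most often lost, and the cause was not tested. Replicate numbers are shared between groups, and nothing in the labels pairs the libraries. Deviations of the replicate 1 libraries from their group means correlated at 0.103 in MOLT-4 and 0.119 in DND-41. With 2 libraries a group, the replicate 2 deviations mirror these and add nothing. With a replicate block, calls were 6918 in MOLT-4, 6876 in DND-41, 2579 for the difference and 10241 for the DMSO level, the ACD difference passed (0.26, adjusted p = 0.0396), and TERF2IP passed in MOLT-4 (0.14, adjusted p = 0.0444) and DND-41 (0.14, adjusted p = 0.0305). Summing identifiers of 1 symbol gave no value, since each symbol had 1. TERC was too shallow to test.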

Other observations

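Of 16 genes listed as genome neighbours of the 8, 13 were tested; 4 rose and 1 fell in MOLT-4, where 20.7% of all genes tested were called higher and 24.4% lower, and 5 rose and 2 fell in DND-41, where 20.0% and 23.2% were. RABGGTA, a prenyltransferase subunit gene near TINF2, rose by 0.56 ± 0.07 in MOLT-4 and 0.77 ± 0.08 in DND-41 (adjusted p = 3.12e-06 and 2.2e-06, edgeR). ADAT1, a transfer RNA deaminase gene near TERF2IP, rose by 0.61 ± 0.07 and 0.39 ± 0.07 (adjusted p = 7.63e-07 and 0.00033, edgeR). CYB5B, a cytochrome gene near TERF2, rose in MOLT-4 by 0.31 ± 0.05 (adjusted p = 8.33e-05, edgeR) and fell in DND-41 by 0.22 ± 0.06 (adjusted p = 0.0145, edgeR), a difference of 0.55 ± 0.08 (adjusted p = 0.000152, edgeR). Its DND-41 call was lost with DESeq2 (-0.22, adjusted p = 0.0531), and when DND-41 DMSO replicate 1 was left out (-0.17, adjusted p = 0.238).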
